A study of Mus musculus with 10 samples.

Results

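Matrix proteases and their inhibitors were followed in NMC cells, a normal mouse cholangiocyte line derived from the epithelium of bile ducts. The set held every gene of the deposited table whose symbol names a matrix metalloproteinase (MMP), an ADAM, an ADAMTS, a tissue inhibitor of metalloproteinases (TIMP), or one of Plau, Plaur, Plat, St14, Hpn, Spint1, Spint2 and Reck. It came to 81 of 18407 genes. The tested samples were 5 libraries of cells grown for 6 days as double spheroids in a laminin-rich gel, a mix of 3 parts laminin to 1 part collagen I. They were set against 5 libraries of the same line grown for the same time in collagen I at 1 mg/mL. All cells were untreated otherwise and came from this single line, and the labels do not say whether each library came from a culture of its own. The p-values therefore measure the spread between these libraries. Total counts ran from 4424725 to 8129979 per library.

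MMPs are zinc-dependent enzymes that cut collagens, laminins and other matrix proteins, and they are made as inactive precursors that other proteases open. ADAMs shed the outer part of membrane proteins such as growth factors and Notch receptors, while ADAMTS enzymes are secreted and cut proteoglycans, procollagens and related substrates. TIMPs bind the active site of these enzymes, Reck is a membrane-anchored inhibitor of MMPs, and the urokinase and tissue plasminogen activators start the plasmin branch of matrix breakdown. In the liver, remodelling of the matrix around bile ducts is part of the ductular reaction and of fibrosis. Collagen I is a main substrate of the collagenase Mmp13 and of the membrane enzyme Mmp14, and laminin is a basement membrane protein.

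Over the whole table of 18407 genes, 3984 had no count in any library and 10789 were tested. Of the 81 genes of the set, 22 had no count in any library, 25 had counts too low to be tested and 34 were tested. The absent genes included Mmp2 (gelatinase A), Mmp7 (matrilysin), Mmp8 (neutrophil collagenase), Adam19, Adam28 and ADAMs known in mice mainly from the testis and epididymis (Adam3, Adam7, Adam18, Adam20, Adam24, Adam25, Adam29, Adam34 and Adam39). The others at 0 were Adamts18, Adamts19, Adamts20, Mmp16, Mmp1a, Mmp1b, Mmp20 and Mmp21. A count of 0 over all 62020119 counts allows a level of up to 0.0484 CPM (counts per 1000000 counts of a library), which covers counting error only. Genes entered the test with the default count filter of edgeR, which asks for about 10 counts in 5 libraries, so a gene present in one matrix alone could enter on that matrix. The St14 protease (matriptase) had 13 counts in laminin and 10 in collagen, and Hpn (hepsin) had 0 and 1, while their inhibitors Spint1 and Spint2 were among the tested genes. Reck had 8 counts in laminin and 11 in collagen, and Timp4 had 12 in each. Mmp9 (gelatinase B) had 5, 4, 6, 10 and 5 counts in laminin and 6, 4, 7, 4 and 7 counts in collagen. Of the 25 untested genes with counts, 22 stayed under 10 counts in every library. Besides those named with their values, they were Mmp12, Mmp23, Mmp24, Mmp25, Mmp27, Adam2, Adam4, Adam5, Adam21, Adam30, Adam32, Adamts8, Adamts12 and Adamts13.

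No protease or inhibitor gene passed the test between the matrices. In the quasi-likelihood test of edgeR, with Benjamini-Hochberg adjusted p-values across 10789 tested genes, 0 of 34 members had an adjusted p under 0.05, where 16 genes, or 0.148%, passed in all. At an unadjusted p under 0.05 there were 9 members, 8 higher and 1 lower in laminin, against 11.7% of all genes. That background was made up of 6.7% of all genes higher and 4.95% lower in laminin. DESeq2 called 2 members, Adam23 and Spint1, where it called 209 genes, or 1.94%, and limma-voom called 0 members where 0.176% of all genes passed. The median log2 difference, laminin minus collagen, was 0.11 over the 34 tested members and 0.01 over all genes, with 22 of 34 and 5580 of 10789 above 0. Group ranges did not overlap for Adam23 and Mmp13, which is 2 of 34 members against 3.23% of all genes. Laminin replicate 4 stood apart for several members. Without it the median was -0.01 over the 34 members and -0.02 over all genes, with 16 of 34 and 5071 of 10809 above 0.

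**Figure D1:**
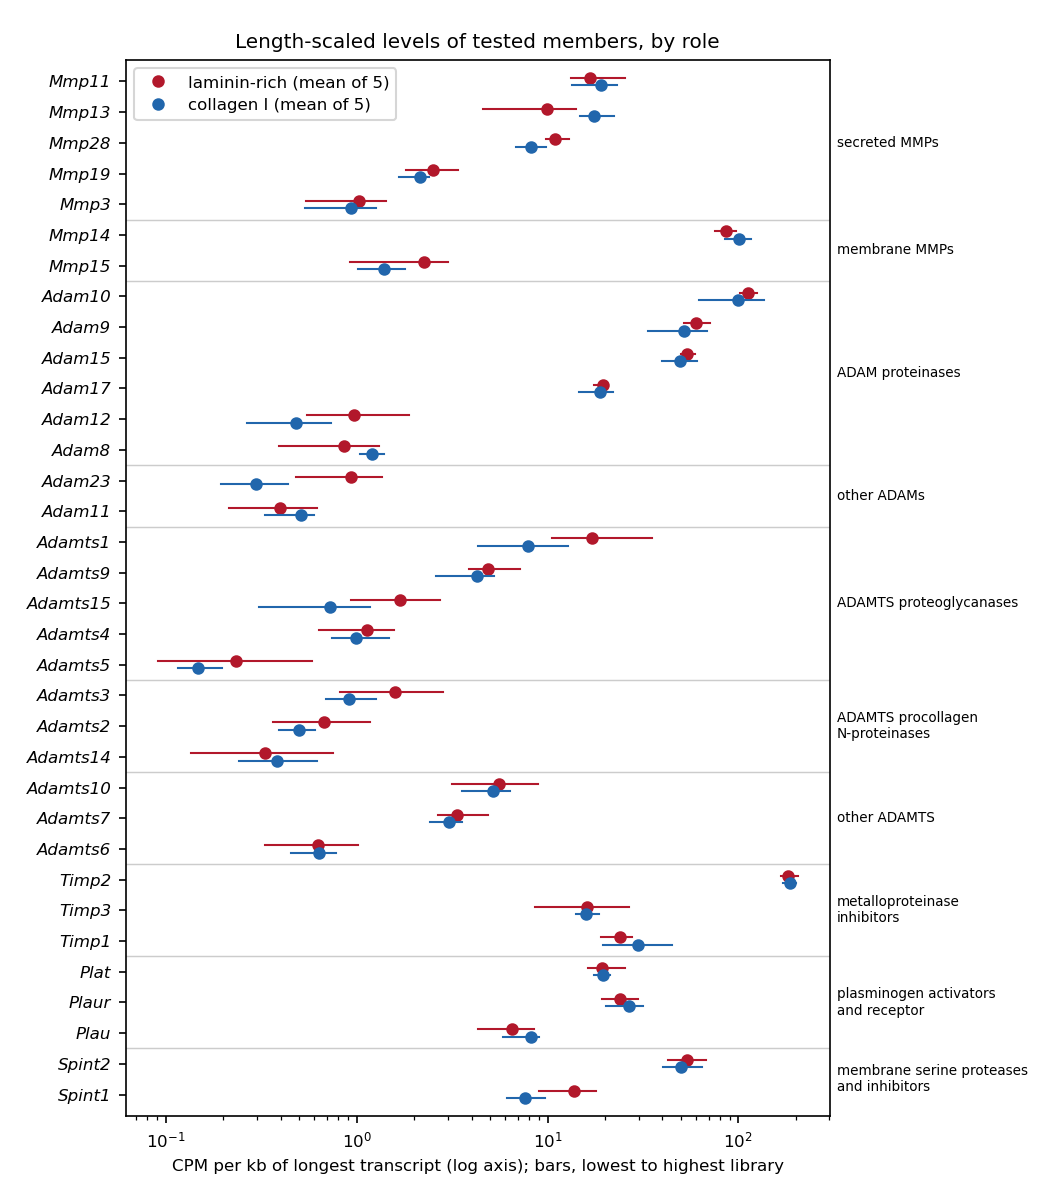
Mean CPM per kilobase of the longest transcript (log axis) for the 34 tested members by role, with laminin-rich gels in red above collagen I in blue and bars from the lowest to the highest of 5 libraries. Timp2, Adam10 and Mmp14 stand at the top in both matrices, at 182, 112 and 86.1 CPM per kilobase in laminin.

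Scaled by transcript length, so that genes can be compared, the inhibitor Timp2 had the highest level of the 34 tested members. It stood at 182 CPM per kilobase in laminin and 187 in collagen. The sheddase Adam10 followed at 112 and 99.2, and the collagenase Mmp14 at 86.1 and 100.5, where the ranges of Adam10 and Mmp14 overlapped in collagen and not in laminin. Adam9, Spint2 and Adam15 formed the next level, at 59.9, 53.6 and 53.7 CPM per kilobase in laminin and 52.1, 49.9 and 49.3 in collagen, again with overlapping ranges. Timp1, Plaur, Plat, Adam17, Mmp11 and Timp3 lay between 16.1 and 24.04 in laminin and between 15.95 and 29.9 in collagen. At the low end, Adamts5 had 0.232 and 0.146 CPM per kilobase, the lowest level of the tested members.

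Values are CPM scaled with TMM factors, a correction for library composition, listed for replicates 1 to 5. Differences are log2 values of laminin minus collagen with their standard error (SE), adjusted p-values come from that edgeR test unless another tool is named, and means carry the SD over 5 libraries per group.

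The secreted MMPs were led by Mmp11, Mmp13 and Mmp28. Mmp13, a collagenase that cuts fibrillar collagens, had 37.5, 18.3, 29.3, 12.3 and 34.8 CPM in laminin, against 46.6, 59.4, 41.8, 47.2 and 39.8 CPM in collagen. Every laminin library lay below every collagen library, and laminin replicates 2 and 4 were the lowest. The means were 26.4 ± 10.8 and 46.97 ± 7.65 CPM, which is a fold of 0.562 and a log2 difference of -0.83 (SE 0.26, adjusted p = 0.244). Without laminin replicate 4 the log2 difference was -0.66 (adjusted p = 0.208). Mmp13 was the only tested member below 0 at an unadjusted p under 0.05.

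Mmp13 lies in a cluster of MMP genes on chromosome 9, at positions 7272514 to 7283331 in GRCm38. Of the 10 cluster genes in the table (Mmp1a, Mmp1b, Mmp3, Mmp7, Mmp8, Mmp10, Mmp12, Mmp13, Mmp20 and Mmp27), only Mmp13 and Mmp3 had enough counts to be tested. Mmp3 (stromelysin 1), at 7445822 to 7455975, had 0.9798, 1.45, 2.56, 1.95 and 2.304 CPM in laminin and 2.26, 1.96, 2.19, 1.02 and 0.963 CPM in collagen, and the groups overlapped (log2 difference 0.09, SE 0.35, adjusted p = 0.945). Mmp10 (stromelysin 2), which was not tested, had 0, 0, 3, 2 and 0 counts in laminin and 5, 1, 5, 3 and 7 counts in collagen. The ratio of its summed counts, scaled by library size, was 0.255, with an exact 95% interval of 0.0752 to 0.695 that covers counting error only. With no filter on low counts its adjusted p was 0.384.

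The promoters of Mmp13 and Mmp3 are shown because these are the 2 tested genes of the cluster, and that of Spint1 because it had the largest difference among the inhibitors. Each run holds the 130 bases before the transcription start given by RefSeq on GRCm38.p6, read from 5′ to 3′ on the plus strand, and capitals mark the motifs named after it.
Mmp13, chr9:7272384-7272513: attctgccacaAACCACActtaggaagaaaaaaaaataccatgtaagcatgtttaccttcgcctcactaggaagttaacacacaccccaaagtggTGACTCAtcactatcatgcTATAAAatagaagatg
Mmp3, chr9:7445692-7445821: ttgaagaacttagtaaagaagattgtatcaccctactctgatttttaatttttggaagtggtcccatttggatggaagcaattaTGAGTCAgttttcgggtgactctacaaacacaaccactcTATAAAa
Spint1, chr2:119237230-119237359: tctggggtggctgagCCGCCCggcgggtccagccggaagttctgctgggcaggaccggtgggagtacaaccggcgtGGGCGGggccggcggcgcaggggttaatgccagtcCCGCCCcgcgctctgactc
Both MMP windows hold an AP-1 motif (TGANTCA), 35 to 29 bases before the start in Mmp13 and 46 to 40 bases before it in Mmp3. Both also hold the letters of a TATA box (TATAAA), 16 to 11 bases before the given start in Mmp13 and 7 to 2 bases before it in Mmp3. The Mmp13 window also holds a RUNX motif (AACCACA), and the Spint1 window holds 3 GC boxes (GGGCGG). Motifs were searched on both strands in the 250 bases before the start, and no capitals overlap between motifs in these windows. In that window, an AP-1 motif was found in 6.75% of all 32851 RefSeq promoters, a TATA box in 12.4%, a RUNX motif in 4.40% and a GC box in 32.7%. Of the 22 tested members matched to a promoter, Mmp13, Mmp3 and Plaur held an AP-1 motif and 19 held a GC box. The shares over all RefSeq promoters include genes that were not tested here, so the sets are not alike. Mmp19, Adam9, Adam12, Adam11, Adamts15, Adamts4, Adamts5, Adamts10, Adamts7, Adamts6, Plat and Plau were not matched. A match describes these letters and is not evidence of binding.

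Mmp28 (epilysin), an MMP of epithelia, had 37.5, 36.9, 44.6, 33.6 and 36.4 CPM in laminin, against 26.97, 23.4, 33.9, 28.3 and 28.7 CPM in collagen. The groups overlapped by 1 library each, as collagen replicate 3 stood just above laminin replicate 4. Its log2 difference was 0.42 (SE 0.12, adjusted p = 0.226), a fold of 1.34. Mmp11 (stromelysin 3) had 32.5, 30.5, 31.2, 58.1 and 38.5 CPM in laminin and 36.3, 30.7, 52.8, 49.05 and 49.1 CPM in collagen. Laminin replicate 4 was the highest of all 10 libraries for Mmp11 while laminin replicates 1, 2 and 3 were among the 4 lowest (log2 difference -0.19, SE 0.20, adjusted p = 0.772). For Mmp11 the log2 difference without laminin replicate 4 was -0.42 (adjusted p = 0.384). Mmp19, a secreted MMP found in many tissues, had 6.16, 7.26, 7.83, 10.04 and 11.5 CPM in laminin and 7.77, 7.85, 8.15, 5.699 and 6.898 CPM in collagen. These ranges overlapped (log2 difference 0.22, SE 0.20, adjusted p = 0.716, and 0.13 without laminin replicate 4). Exons of Mmp28, Mmp11 and Mmp19 overlap opposite-strand exons of 1700020L24Rik, Chchd10, and Gm47093 and Tmem198b. Whether reads were counted by strand is not given, so their values are uncertain to that extent, as are those of Adamts4, Timp3 (Syn3), Adam17 (Iah1), Adam15 (4731419I09Rik), Adamts9 (A730049H05Rik and Gm15737), Adam8 (Gm16201) and Adamts7 (Tbc1d2b).

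Of the membrane-type MMPs, Mmp14 was the abundant one. Mmp14 (MT1-MMP), a collagenase held at the cell surface, had 296, 243, 250.4, 314 and 291 CPM in laminin, against 275, 289.9, 376, 347 and 339 CPM in collagen. The 3 highest values were collagen libraries, but laminin replicates 1, 4 and 5 lay above collagen replicates 1 and 2. The means were 279 ± 30.5 and 325 ± 41.9 CPM, a log2 difference of -0.22 (SE 0.12, adjusted p = 0.475). Mmp15 (MT2-MMP) had 4.76, 10.9, 15.5, 12.6 and 13.8 CPM in laminin and 5.22, 7.32, 5.59, 9.16 and 8.18 CPM in collagen. All laminin libraries other than replicate 1 exceeded every collagen library, while laminin replicate 1 was the lowest of all 10. Its fold was 1.63, with a log2 difference of 0.70 (SE 0.28, adjusted p = 0.355), and 0.91 without laminin replicate 1 (adjusted p = 0.0775). Mmp17 (MT4-MMP) was too low to be tested, at 12, 5, 14, 9 and 9 counts in laminin and 9, 8, 7, 10 and 6 counts in collagen.

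**Figure D2:**
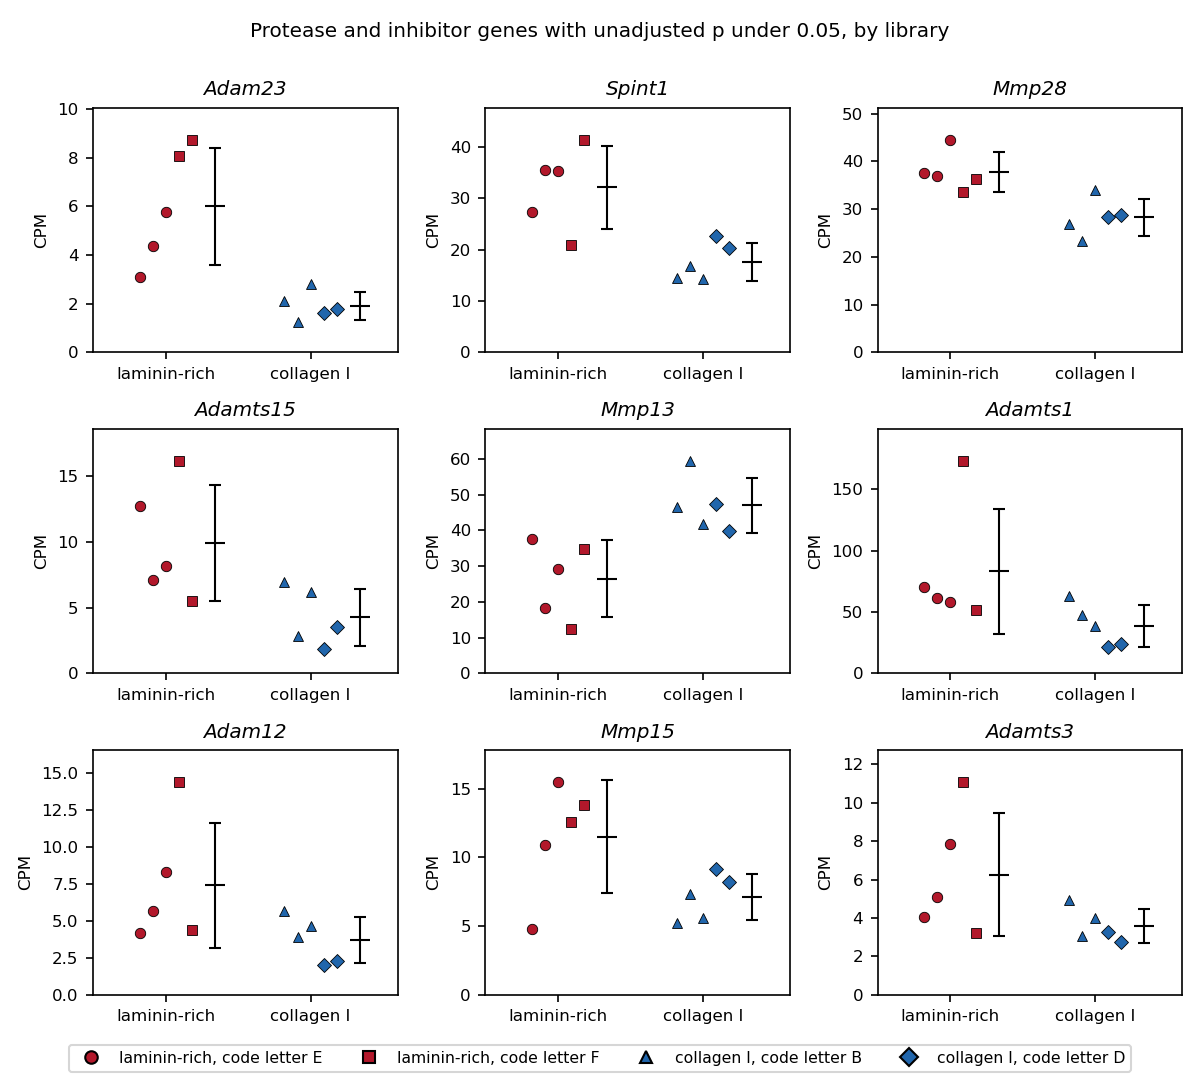
CPM in each library for the 9 members with an unadjusted p under 0.05, with laminin-rich gels left of collagen I, marker shapes for the letter of the library code, and the mean and SD over 5 libraries beside the points. Adam23 and Mmp13 show no overlap between the matrices, and laminin replicate 4 stands at 173 CPM for Adamts1.

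Among the ADAM proteinases, the 4 most abundant gave small differences between the matrices and a wider spread in collagen. Adam10, the main sheddase of Notch receptors and E-cadherin, had 469, 573, 559.9, 491 and 479 CPM in laminin, against 625, 626, 400.5, 285 and 342 CPM in collagen. The laminin values all lay inside the collagen range, where replicates 1 and 2 were high and replicates 4 and 5 low (log2 difference 0.17, SE 0.20, adjusted p = 0.7901). Adam9, a sheddase also known for binding integrins, had 286, 255, 236, 209 and 225 CPM in laminin and 276, 259, 216, 136 and 167 CPM in collagen, with the same collagen libraries high and low. Its log2 difference was 0.20 (SE 0.18, adjusted p = 0.713). Adam17 (TACE), which sheds tumour necrosis factor and EGF receptor ligands, had 90.6, 88.6, 89.7, 89.8 and 78.3 CPM in laminin and 95.3, 99.1, 83.9, 65.5 and 77.97 CPM in collagen. It followed the same order in collagen, and its log2 difference was 0.05 (SE 0.12, adjusted p = 0.903).

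Adam15 ran the other way within collagen. This ADAM, which carries an integrin-binding RGD motif in humans, had 232, 202, 204, 195 and 217 CPM in laminin and 158, 156, 193, 237 and 220.4 CPM in collagen. Collagen replicates 4 and 5 were high and replicates 1 and 2 low (log2 difference 0.12, SE 0.13, adjusted p = 0.763). Adam12, a proteinase raised in many tissues during remodelling, had 4.199, 5.63, 8.31, 14.4 and 4.38 CPM in laminin and 5.65, 3.93, 4.62, 2.04 and 2.25 CPM in collagen. Laminin replicates 3 and 4 lay above all collagen libraries and the other 3 did not (log2 difference 0.98, SE 0.38, adjusted p = 0.342). Laminin replicate 4 had 14.4 CPM, beside 5.63 ± 1.899 CPM (SD, n = 4) in the other laminin libraries. Without it the log2 difference was 0.57 (edgeR adjusted p = 0.563). Adam8 had a low level, at 3.13 ± 1.21 CPM in laminin and 4.401 ± 0.488 CPM in collagen (log2 difference -0.47, SE 0.27, adjusted p = 0.526). Adam33 had 0 counts in laminin and 1 in collagen.

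Adam23 had the largest difference of the tested members. Adam23 belongs to the ADAMs that lack the zinc-binding site of an active enzyme and is known as a cell-adhesion protein that binds integrins and the LGI proteins of neurons. It had 3.08, 4.36, 5.76, 8.09 and 8.76 CPM in laminin, against 2.12, 1.25, 2.796, 1.63 and 1.76 CPM in collagen. Every laminin library lay above every collagen library, and the closest pair was laminin replicate 1 with collagen replicate 3. The means were 6.01 ± 2.41 and 1.91 ± 0.584 CPM, a fitted fold of 3.02 and a log2 difference of 1.59 (SE 0.33). The adjusted p was 0.0802 in edgeR and 0.00209 in DESeq2, and from 0.0286 to 0.226 in edgeR with 1 library left out. It passed in 1 of those 10 fits, without laminin replicate 1, where 64 genes, or 0.591%, passed. The edgeR adjusted p was 0.116 without laminin replicate 4. These values rest on 174 counts in laminin and 64 in collagen, and the highest count in a library was 54. Adam23 lies on chromosome 1 from 63445891 to 63596276 (GRCm38).

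Adam11, the other tested ADAM without a zinc-binding site, had 1.26, 1.09, 2.72, 3.15 and 1.84 CPM in laminin and 1.69, 2.14, 3.04, 3.05 and 3.05 CPM in collagen, with overlapping groups (log2 difference -0.35, SE 0.33, adjusted p = 0.727, and -0.60 without laminin replicate 4). Adam22, also of this kind, had 1 count in each matrix.

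All 11 tested genes of the secreted ADAMTS enzymes were highest in the same library, laminin replicate 4. Of the 5 tested proteoglycanases, 5 had a log2 difference above 0, with a median of 0.66, beside 5580 of 10789 above 0 and a median of 0.01 over all genes. With laminin replicate 4 left out, 2 of 5 lay above 0 and their median was -0.01. None of the 5 passed the test with all 10 libraries or without this one. Over all 10789 genes, laminin replicate 4 was the highest library for 14.1%, and for 20.7% of the 4451 genes with transcripts of 3937 nt or more, the length of the shortest ADAMTS transcript. Of the other 23 tested members it was highest for 6. The pattern was noticed in these data and no test was made of it.

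**Figure D3:**
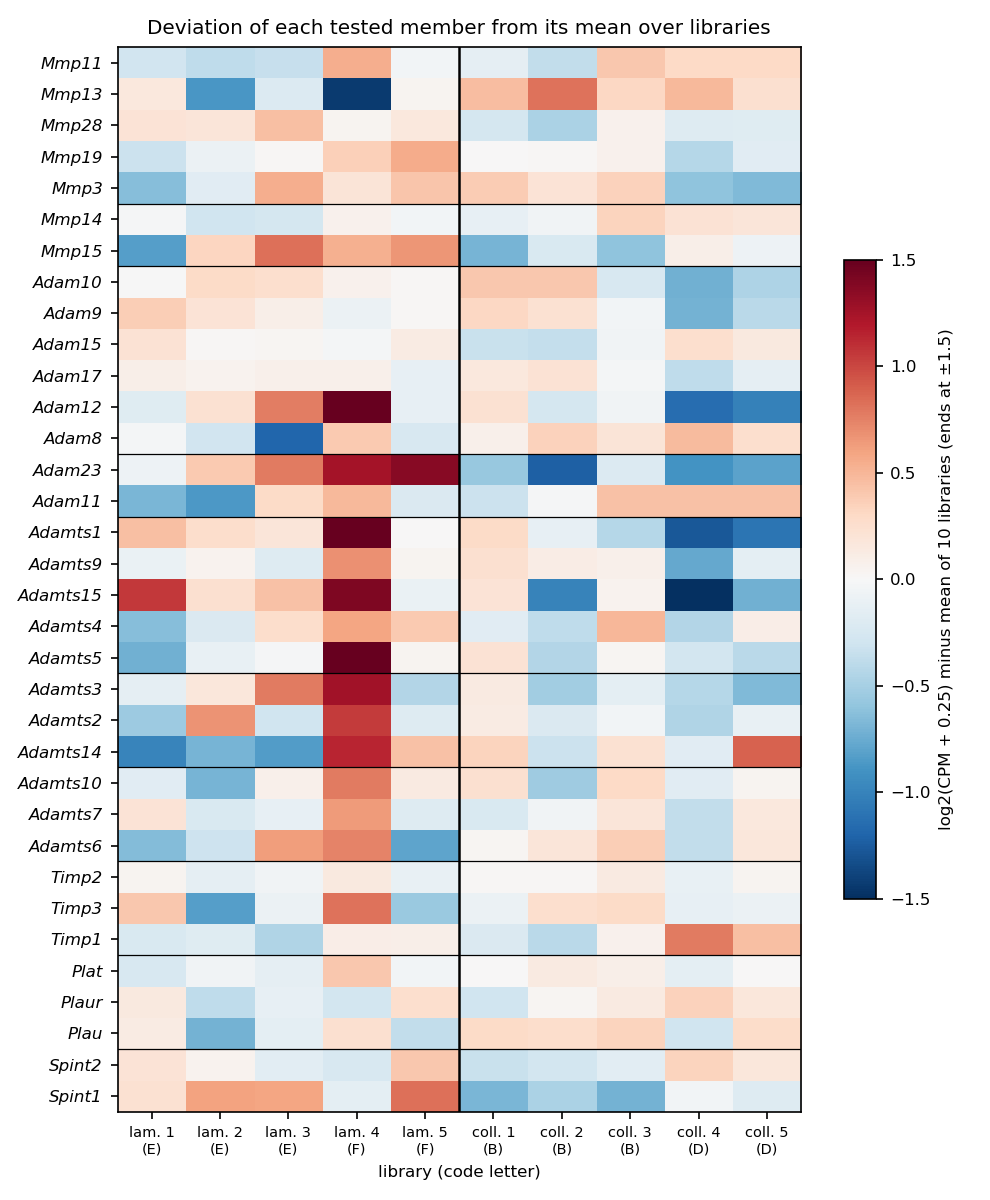
Deviation of log2(CPM + 0.25) from the mean of the 10 libraries for each tested member, with laminin libraries left of the line, collagen libraries right of it and the letter of the library code in brackets. Red is above the mean and blue below, and the block of ADAMTS genes is red in laminin replicate 4.

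Adamts1, which cuts aggrecan and versican and is known to restrain blood vessel growth, had 70.4, 61.8, 58.4, 173 and 51.8 CPM in laminin, against 62.8, 47.3, 38.3, 21.2 and 24.1 CPM in collagen. Laminin replicate 4 stood far above the rest, and collagen replicates 4 and 5 were the lowest. The means were 83.1 ± 50.8 and 38.7 ± 17.2 CPM, a fold of 2.14 (log2 difference 1.10, SE 0.37, adjusted p = 0.279). Without laminin replicate 4 the laminin mean was 60.6 ± 7.73 CPM (n = 4) and the log2 difference 0.63 (adjusted p = 0.4196). Its neighbour on chromosome 16, the aggrecanase Adamts5, had 0.9798, 1.63, 1.76, 6.29 and 1.84 CPM in laminin and 2.12, 1.25, 1.82, 1.42 and 1.28 CPM in collagen. Apart from laminin replicate 4, the values of Adamts5 overlapped between the matrices (log2 difference 0.66, SE 0.47, adjusted p = 0.629, and -0.09 without that library).

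Adamts15, another proteoglycanase, had 12.7, 7.08, 8.15, 16.2 and 5.53 CPM in laminin, against 6.92, 2.86, 6.2001, 1.83 and 3.53 CPM in collagen. Laminin replicates 1 and 4 were the 2 highest and laminin replicate 5 lay inside the collagen range. The fold was 2.29, with a log2 difference of 1.19 (SE 0.37, adjusted p = 0.244), and 0.93 without laminin replicate 4. Adamts9, which cuts versican and is needed for primary cilia in mice, had 33.5, 37.1, 31.2, 57.7 and 36.6 CPM in laminin and 42.2, 38.6, 37.6, 20.96 and 32.2 CPM in collagen. Its log2 difference was 0.19 (SE 0.20, adjusted p = 0.776) and -0.01 without laminin replicate 4. The aggrecanase Adamts4 had 2.799, 3.81, 5.44, 6.89 and 5.99 CPM in laminin and 3.95, 3.39, 6.44, 3.26 and 4.81 CPM in collagen, with overlapping ranges (log2 difference 0.16, SE 0.28, adjusted p = 0.869, and -0.02 without laminin replicate 4).

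The procollagen N-proteinases, which trim the amino end of fibrillar procollagens, were low. Adamts3 had 4.06, 5.09, 7.83, 11.1 and 3.23 CPM in laminin and 4.94, 3.03, 4.01, 3.26 and 2.73 CPM in collagen. Laminin replicates 2, 3 and 4 were the highest and replicates 1 and 5 lay among the collagen libraries (log2 difference 0.80, SE 0.33, adjusted p = 0.361, and 0.47 without laminin replicate 4). Adamts2 had 2.66, 6.54, 3.198, 8.54 and 3.46 CPM in laminin and 4.38, 3.39, 3.89, 2.85 and 3.69 CPM in collagen, and Adamts14 had 0.6998, 0.908, 0.799, 3.896 and 2.304 CPM in laminin and 2.12, 1.25, 1.95, 1.42 and 3.21 CPM in collagen. Both overlapped between the matrices, with log2 differences of 0.41 (SE 0.32, adjusted p = 0.656) for Adamts2 and -0.23 (SE 0.48, adjusted p = 0.892) for Adamts14. Without laminin replicate 4 these were 0.08 and -0.88.

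Of the remaining ADAMTS genes, Adamts10, linked to fibrillin microfibrils, had 18.9, 13.1, 22.5, 36.7 and 23.5 CPM in laminin and 25.3, 14.6, 26.3, 18.9 and 21.98 CPM in collagen. Adamts7, which cuts cartilage oligomeric matrix protein, had 19.5, 14.3, 15.5, 26.4 and 14.7 CPM in laminin and 14.4, 16.2, 19.2, 13.03 and 18.8 CPM in collagen. Adamts6 had 2.799, 3.63, 7.19, 7.79 and 2.53 CPM in laminin and 4.66, 5.18, 5.96, 3.46 and 5.13 CPM in collagen. The groups overlapped for all 3 genes. The log2 differences were 0.10 (SE 0.24) for Adamts10, 0.15 (SE 0.19) for Adamts7 and -0.02 (SE 0.32) for Adamts6, with adjusted p from 0.811 to 0.989. Without laminin replicate 4 they were -0.16, -0.05 and -0.28.

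Adamts16, an ADAMTS known from kidney and gonads, fell outside the test because of its low counts, and is described because its values were seen to separate the matrices. It had 8, 6, 3, 26 and 3 counts in laminin, against 0, 0, 1, 0 and 0 counts in collagen. Every laminin library had 3 or more counts, a single collagen library had 1, and laminin replicate 4 held 26 of the 46 laminin counts. The ratio of summed counts, scaled by library size, was 49.3 with an exact 95% interval of 8.42 to 1989, and without laminin replicate 4 it was 27.6 (4.41 to 1143), both covering counting error only. Tested with no filter on low counts, Adamts16 had an adjusted p of 0.0462 in edgeR, as 29 of 14423 genes, or 0.201%, passed in that fit. Adamts17 had 6 counts in laminin and 0 in collagen, again with most, 4, in laminin replicate 4.

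None of the 3 tested TIMPs passed the test, and their groups overlapped. Timp2, which inhibits MMPs and takes part in the activation of pro-Mmp2 by Mmp14, had 702, 623, 659, 758 and 632 CPM in laminin, against 694, 691, 747, 633 and 706 CPM in collagen. The groups overlapped almost fully, and the log2 difference was -0.04 (SE 0.09, adjusted p = 0.902), or -0.10 without laminin replicate 4. Mmp2, the enzyme of that pathway, had no count in any library. Timp3, which binds to the matrix and also inhibits Adam17, had 95.6, 40.7, 67.6, 127 and 49.1 CPM in laminin and 67.8, 86.2, 88.4, 66.3 and 67.9 CPM in collagen. Its laminin values spanned the collagen range on both sides, with replicates 1 and 4 high and 2 and 5 low (log2 difference 0.02, SE 0.26, adjusted p = 0.989, and -0.27 without laminin replicate 4). Timp1 had 19.6, 20.2, 16.8, 24.6 and 24.4 CPM in laminin and 19.8, 17.3, 23.9, 39.7 and 31.4 CPM in collagen, where replicates 4 and 5 were high (log2 difference -0.32, SE 0.21, adjusted p = 0.608).

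Plasminogen activators and the urokinase receptor were all expressed, and 0 of these 3 genes passed the test. Plaur, the urokinase receptor, had 55.6, 38.7, 46.05, 41.5 and 59.7 CPM in laminin and 40.8, 51.4, 55.1, 63.9 and 56.6 CPM in collagen. Plau, urokinase, had 18.3, 10.2, 15.2, 19.9 and 12.9 CPM in laminin and 20.6, 20.2, 21.2, 13.6 and 20.4 CPM in collagen. Plat, the tissue plasminogen activator, had 66.2, 75.6, 70.99, 103 and 76.03 CPM in laminin and 78.7, 85.7, 82.9, 70.6 and 78.4 CPM in collagen. Each pair of groups overlapped, although for Plau collagen replicates 1, 2, 3 and 5 lay above all laminin libraries. The log2 differences were -0.15 (SE 0.15) for Plaur, -0.32 (SE 0.19) for Plau and -0.02 (SE 0.13) for Plat, with adjusted p of 0.754, 0.543 and 0.974. That of Plat was -0.15 without laminin replicate 4, its highest library.

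Spint1 and Spint2 encode HAI-1 and HAI-2, membrane-bound inhibitors of matriptase, hepsin and the activator of hepatocyte growth factor. Spint1 had 27.3, 35.6, 35.3, 20.98 and 41.5 CPM in laminin, against 14.4, 16.8, 14.2, 22.6 and 20.4 CPM in collagen. All laminin libraries other than replicate 4 exceeded every collagen library, and replicate 4 lay below collagen replicate 4. The means were 32.1 ± 8.02 and 17.7 ± 3.704 CPM, a fold of 1.82 and a log2 difference of 0.86 (SE 0.20). The adjusted p was 0.109 in edgeR and 0.00804 in DESeq2. Without laminin replicate 4 the log2 difference was 0.97 (edgeR adjusted p = 0.0516). Spint1 lies on chromosome 2 from 119237362 to 119249527 (GRCm38). Spint2 was more abundant and did not separate the gels, at 192, 172, 149, 139.8 and 219 CPM in laminin and 131, 137, 149, 209 and 187 CPM in collagen (log2 difference 0.10, SE 0.16, adjusted p = 0.854).

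Libraries also differed within a matrix, and the part of this in the results was not tested. The library code letter, whose meaning is not given, was E for laminin replicates 1 to 3, F for 4 and 5, B for collagen replicates 1 to 3 and D for 4 and 5. No letter is found in both matrices, so letter and matrix cannot be told apart. Within collagen, the mean of letter D over that of letter B ran from 0.452 for Adam12 to 1.75 for Timp1. This ratio was above 1 for 12 and below 1 for 22 of the 34 tested members, with no share over all genes to set beside it. It was 0.457 for Adamts1, 0.463 for Mmp3, 0.570 for Adam10 and 0.605 for Adam9. It was 1.31 for Adamts14, 1.33 for Adam11, 1.42 for Spint1 and for Spint2, and 1.43 for Mmp15. Within laminin, Adam23 had means of 4.40 CPM for letter E and 8.42 CPM for letter F. These means were 1.46 and 4.07 CPM for Adamts5 and 0.802 and 3.10 CPM for Adamts14, where letter F includes replicate 4. In the other direction, they were 259 and 217 CPM for Adam9 and 28.4 and 23.5 CPM for Mmp13. Without letter B, 7 of 35 tested members passed in edgeR, against 18.9% of all genes in that fit. These were Adam23, Adamts1, Adam12, Adam9, Adamts15 and Adam10, higher in laminin, and Timp1, lower. Without letter D none of 35 passed, at 5 of 10955 genes in all (0.0456%).

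When a smooth trend over transcript length and GC content was taken out of each library, Spint1 passed in edgeR and was the only member to do so, where 104 genes, or 0.964%, passed. Its log2 difference was 0.87 (adjusted p = 0.03599), and those of Adam23 and Mmp13 were 1.45 (0.0687) and -0.74 (0.154). The median over the tested members was 0.03 in that fit. Laminin replicate 4 was still the highest library for 10 of 11 ADAMTS genes, while it was highest for 12.9% of all genes. This correction ignores the matrix, so a response to the matrix that varied with length or GC would be lost with it.

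**Figure D4:**
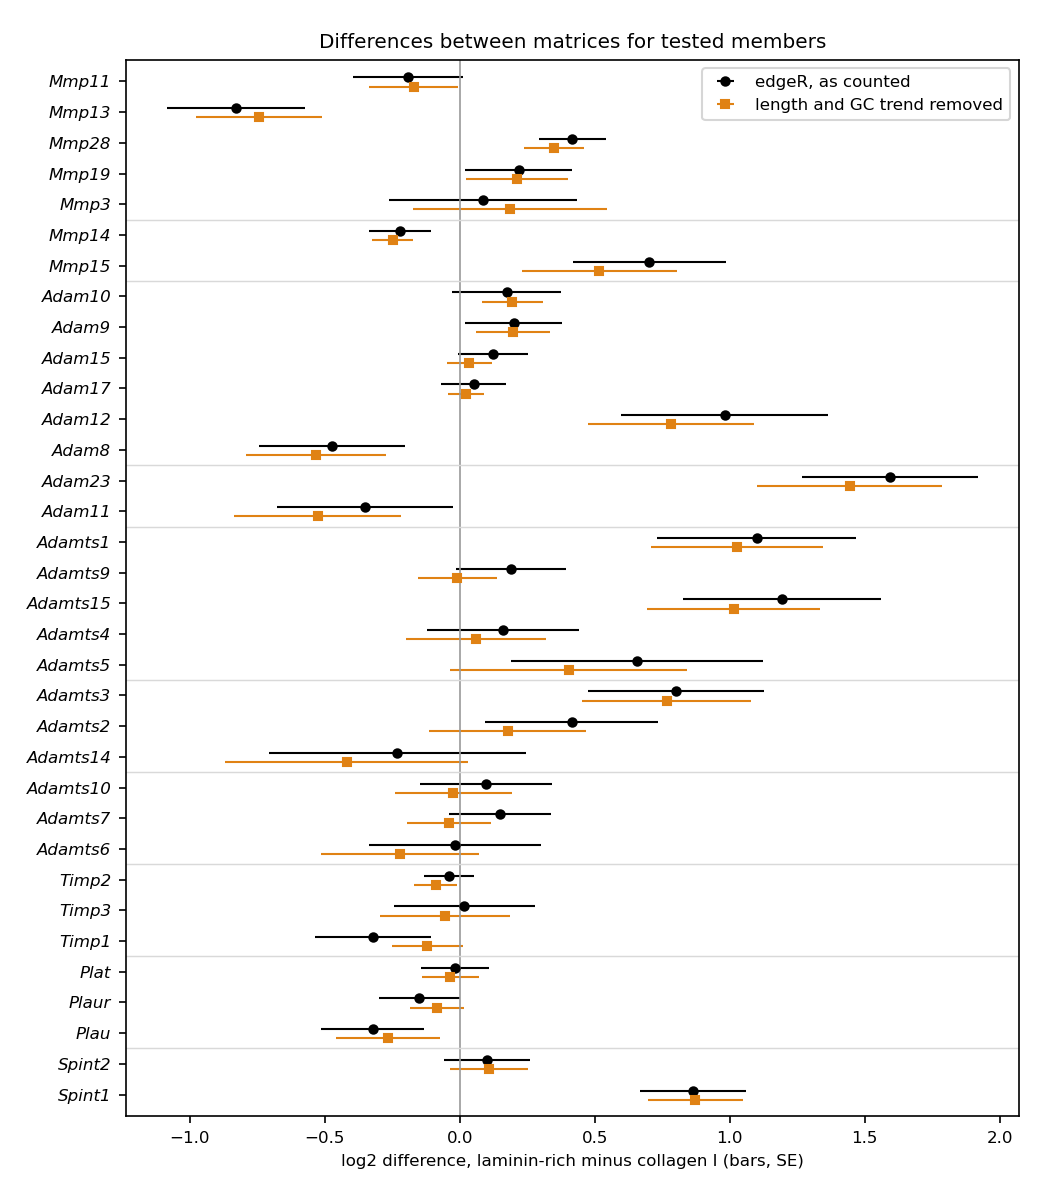
Log2 difference of laminin-rich gels minus collagen I with its SE for the 34 tested members, from edgeR on the counts (black) and after the correction for length and GC (orange). Adam23 stands at 1.59 and Mmp13 at -0.83 as counted.

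Other genes of the proteolysis network were read from lists of 116 genes in the table, of which 73 were tested. In edgeR 0 of the 73 passed, with 16 at an unadjusted p under 0.05, 10 higher and 6 lower in laminin, or 21.9% against 11.7% of all genes. The lists were chosen with earlier results of these data known, so this share describes them and is not independent evidence. The median log2 difference over the 73 was 0.02. Group ranges did not overlap for Furin, Pcsk7 and Ece1, which is 3 of 73 (4.11%) against 3.23% of all genes. DESeq2 called 4 of them (5.48%), Furin and Ece1 higher and F2r and Cpe lower in laminin, where it called 1.94% of all genes. With limma-voom none of them passed, where 0.176% of all genes did.

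Furin, the convertase that opens pro-Mmp14, pro-ADAMs and pro-ADAMTS enzymes, had 193, 194, 222, 195 and 176 CPM in laminin, against 137, 133, 168, 136 and 157 CPM in collagen. The groups did not overlap, and the log2 difference was 0.42 (SE 0.10, adjusted p = 0.133 in edgeR). After the correction for length and GC it was 0.23 (adjusted p = 0.188). Ece1, which processes endothelins, had 341, 339, 349.8, 351 and 332 CPM in laminin and 278, 288, 304, 262 and 273 CPM in collagen, also without overlap (log2 difference 0.29, SE 0.08, adjusted p = 0.208, and 0.16 with the trend removed). F2r, the thrombin receptor PAR1 that Mmp1 and other proteases also cleave in humans, had 144, 133, 138, 233 and 151 CPM in laminin and 248, 262, 281, 195 and 244 CPM in collagen. Laminin replicate 4 was the only laminin library inside the collagen range. Its log2 difference was -0.62 (SE 0.16, adjusted p = 0.152), and without laminin replicate 4 it was -0.82 and passed in edgeR (adjusted p = 0.0165), as 36 genes, or 0.333%, did in that fit.

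Cpe, a carboxypeptidase of the secretory pathway, had 87.9 ± 16.7 CPM in laminin and 124 ± 13.2 CPM in collagen (log2 difference -0.50, SE 0.14, adjusted p = 0.192). Pcsk6, a convertase related to Furin, had 7.81 ± 2.99 and 13.9 ± 2.26 CPM (log2 difference -0.84, SE 0.25, adjusted p = 0.225). Apart from Furin and Ece1, the abundant genes of the lists given here overlapped between the matrices. Anxa2, a plasminogen-binding annexin, had 940.0 ± 177 CPM in laminin and 1136 ± 154 CPM in collagen. Bsg, known as an inducer of MMPs, had 1877 ± 512 and 1920.1 ± 247 CPM, and the syndecan Sdc1 had 456 ± 56.8 and 419 ± 52.1 CPM. Met, the receptor of hepatocyte growth factor, had 273 ± 63.5 CPM in laminin and 251 ± 109 CPM in collagen, and the collagen chaperone Serpinh1 had 292 ± 68.7 and 320.4 ± 45.8 CPM. Among convertases and metalloproteases, Mbtps1 had 315 ± 21.2 and 302 ± 23.6 CPM, the procollagen C-proteinase enhancer Pcolce had 387 ± 32.04 and 363 ± 105 CPM, and Cpd had 389 ± 66.5 and 293 ± 123 CPM. Adamtsl4 and Adamtsl5, ADAMTS-like proteins without a protease domain, had 31.8 ± 7.09 and 16.2 ± 4.36 CPM in laminin and 29.3 ± 4.5 and 15.1 ± 3.41 CPM in collagen. Heparanase (Hpse) had 89.3 ± 24.1 CPM in laminin and 112 ± 12.8 CPM in collagen, and the hyaluronidase Hyal2 had 18.1 ± 3.25 and 21.8 ± 6.08 CPM. The adjusted p of these 12 genes ran from 0.475 for Anxa2 to 0.959 for Bsg in edgeR.

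The cell type label was read against marker lists. Of 19 cholangiocyte markers 14 had a mean of 1 CPM or more and 1 was at 0, and the list summed to 4294 to 5871 CPM in laminin and 4096 to 6147 CPM in collagen, led by Krt8, Krt19 and Krt18. Cldn4, Cldn7, Prom1 and Onecut1 had means under 1 CPM in both matrices. Muc1 had means of 72.2 CPM in laminin and 32.2 CPM in collagen, and Aqp1 had 37.2 and 19.5 CPM. Other means were lower in laminin, at 3.34 and 6.80 CPM for Krt7 and 807 and 993 CPM for Krt18. Leukocyte markers, of types that carry Mmp8 and Mmp9, summed to 4.00 to 7.19 CPM in laminin and 4.38 to 8.66 CPM in collagen with Adgre1, Ly6g and Clec4f among those at 0, while endothelial markers summed to 1.26 to 2.72 and 1.46 to 2.32 CPM with Cdh5, Kdr, Emcn and Erg at 0. Red cell markers summed to 0 to 0.230 CPM in laminin and 0 CPM in collagen. Hepatocyte markers summed to 136 to 193 CPM in laminin and 89.5 to 138 CPM in collagen, led by Hnf4a and Alb, with Cyp2e1 and Cyp3a11 at 0, and their part in the results was not tested. Fibroblast and stellate markers, of cells that also express ADAMTS genes, summed to 685 to 841 CPM in laminin and 662 to 823 CPM in collagen, led by Fbln2 and Fbln1, with Lrat and Thy1 at 0. Fbln2 made up most of that sum, at 581 to 709.8 CPM in laminin and 574 to 722 CPM in collagen. Without it the list summed to 104 to 132 CPM in laminin and 88.4 to 127 CPM in collagen, with 119 CPM in laminin replicate 4. Single markers differed from the sum. Pdgfra had 3.36 to 13.5 CPM in laminin and 2.65 to 5.22 CPM in collagen, Pdgfrb had 1.26 to 6.08 and 0.424 to 0.802 CPM, and Dcn had 2.30 to 5.25 and 6.35 to 9.64 CPM. The place of laminin replicate 4 varied among the 9 markers of this list with a mean of 1 CPM or more. It was the highest laminin library for Pdgfra (13.5 CPM), Col1a1 (29.2 CPM), Col3a1 (2.55 CPM) and Dcn (5.25 CPM). It was the lowest for Fbln1 (43.9 CPM), and neither highest nor lowest for Pdgfrb, Des, Fbln2 and Cygb. The part of these markers' cell types in the ADAMTS values was not tested. In bulk samples, fewer cells of a type and less RNA per cell cannot be told apart.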

How the data were processed

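The authors deposited whole-number read counts per gene symbol, 1 column per library and not normalized. The submitters' processing notes name GRCm38 (mm10) and DESeq2. Per the labels' protocols, each TruSeq Stranded mRNA library used 30 ng of total RNA. Which aligner, counter, strand option and annotation the authors used is not given in the sources.

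Counts were filtered with filterByExpr (10789 of 18407 genes kept), scaled with TMM factors and compared with edgeR 4.0.16 in R 4.3.3 (quasi-likelihood F test, two-sided, group only, 5 against 5 libraries, Benjamini-Hochberg over all genes, threshold 0.05). SE is the log2 difference divided by the square root of F. Depth allows 3 counts, the limit that a count of 0 gives, to stand for 0.369 to 0.678 CPM per library. Positions, longest transcripts and GC content came from GENCODE M21, matched by symbol for 99.9% of genes tested. The length and GC trend was a spline with 5 degrees of freedom for each, entered as an edgeR offset. Alternatives were DESeq2 1.42.0, limma-voom (limma 3.58.1), 2 other scalings, 2 other filters, the replicate block, each library or code letter left out, and this offset. When counts were simulated for 10789 genes with the libraries' own trends, 14.9% of the genes given a 1.5-fold change were found, as were 71.6% of those given 2-fold and 93.9% of those given 3-fold. The counts were drawn once, with 66 to 67 genes per fold and independent noise in each library. Gene-level differences shared within a code letter were not simulated, so these rates need not hold for the real libraries.

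The members and lists were chosen with earlier results of these data known. Values are given in full for members with an unadjusted p under 0.05 and for up to 4 per role with the highest mean CPM of at least 1, and for related genes with an unadjusted p under 0.01 or among the 2 most abundant of a list, except 1 gene that is not reported here. Same-numbered libraries were not paired, as their deviations correlated from -0.327 to 0.483. The closest pair of libraries differed beyond sampling noise, so all 10 were used.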

Additional observations from a re-analysis of the deposited data

Results flagged for a closer look

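Among 68 groups of 5 libraries (34 tested members in each matrix), 4 held a library far from the other 4 on the log2 scale, where chance gives about 1 in 20, or 3.4. Laminin replicate 4 was the highest laminin library for Adamts1, at 173 CPM against 70.4 CPM in the next, and for Adamts9, at 57.7 CPM against 37.1 CPM. Laminin replicate 5 was the lowest laminin library for Adam17, at 78.3 CPM against 88.6 CPM in the next. Collagen replicate 4 was the lowest collagen library for Plau, at 13.6 CPM against 20.2 CPM in the next.

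Adamts16, which was too low for the test, had 46 counts over the laminin libraries and 1 over the collagen libraries. Laminin replicate 4 gave 26 of the 46.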

How the results depend on the processing

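The count of genes passing in all was 16 as reported, 209 in DESeq2, 104 with the length and GC trend removed, 29 with no filter, 0 with the replicate block, 2083 without letter B, 5 without letter D, 1 without letter E, 5 without letter F, and 0 to 64 leaving out 1 library. For the members the count was 0 as reported, 2 in DESeq2, 1 with the trend removed, 1 with no filter, 7 without letter B, and 0 to 1 leaving out 1 library. For the related genes it was 0 as reported, 4 in DESeq2, 2 with the trend removed, 1 with no filter, 10 without letter B, and 0 to 2 leaving out 1 library. The cause of these differences was not tested. Of the 34 tested members, 16 kept their direction under all 22 alternatives and 18 reversed under 1 or more. No such share over all genes is given here, so these counts do not set the members apart. Where the log2 difference changed sign, its value follows by setting. Without letter E it was 0.13 for Mmp11, -0.026 for Adam17, 0.63 for Adamts14, 0.10 for Adamts6, 0.16 for Plat, 0.0076 for Bsg and 0.12 for Serpinh1. Without letter F it was -0.062 for Mmp19, -0.071 for Mmp3, -0.038 for Adamts9, -0.16 for Adamts4, -0.17 for Adamts5, -0.25 for Adamts10, -0.0079 for Adamts7 and -0.16 for Timp3. Without letter D it was -0.23 for Mmp3, -0.098 for Adam10, -0.048 for Adam9, -0.084 for Adam17, -0.0078 for Adamts9, -0.082 for Timp3, 0.043 for Timp1, 0.076 for Bsg, 0.018 for Hyal2 and -0.24 for Met. Without letter B it was -0.15 for Adam15, 0.14 for Adamts6, 0.046 for Plat, -0.21 for Spint2, -0.093 for Adamtsl4, -0.16 for Adamtsl5, -0.23 for Pcolce and -0.021 for Sdc1. With the length and GC trend removed it was -0.0088 for Adamts9, -0.024 for Adamts10, -0.039 for Adamts7, -0.055 for Timp3 and -0.13 for Mbtps1. With a minimum of 1 CPM in 5 libraries it was -0.0027 for Timp3. In limma-voom it was -0.087 for Timp3. With no filter it was -0.0084 for Timp3. With the replicate block it was -0.095 for Timp3. Leaving out 1 library, the range was -0.091 to 0.26 for Mmp3, -0.026 to 0.093 for Adam17, -0.012 to 0.26 for Adamts9, -0.017 to 0.36 for Adamts4, -0.093 to 0.88 for Adamts5, -0.16 to 0.22 for Adamts10, -0.046 to 0.22 for Adamts7, -0.28 to 0.14 for Adamts6, -0.27 to 0.15 for Timp3, -0.15 to 0.040 for Plat, -0.0019 to 0.21 for Adamtsl4, -0.040 to 0.19 for Adamtsl5, -0.16 to 0.035 for Bsg, -0.051 to 0.28 for Met and -0.053 to 0.21 for Pcolce. Same-numbered libraries correlated from -0.327 to 0.483, so the block describes a shared number alone. Low counts limit what can be said of the 25 untested members, 22 of which stayed under 10 counts in every library.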
